A study of Mus musculus with 6 samples.

Results

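The genes described here are 7 members of the mouse Ly6 family of surface proteins, Ly6a, Ly6c1, Ly6c2, Ly6d, Ly6e, Ly6g and Ly6i, taken by gene symbol from 35237 genes of a Cufflinks table and from 36536 entries of an ALEXA-Seq table. RNA-Seq libraries were made from bone marrow monocytes (BMDM, sorted as CD11b+ CD45high CD115+ Ly6G- cells) and from brainstem microglia (BSM, sorted as CD11b+ CD45low CD115low Ly6G- cells), 3 libraries for each cell type. All libraries came from C57BL/6 mice at 6 weeks of age with no treatment named, and each was made from cells pooled over a set of mice. Replicate 1 of each cell type is labelled male and replicates 2 and 3 are labelled female. Cufflinks gave FPKM, fragments scaled by transcript length and by the number of mapped reads. ALEXA-Seq gave an expression signal from the same reads whose unit is not named.

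Ly6 proteins are small, cysteine-rich proteins with finger-like loops that are held on the outer face of the cell membrane by a glycosylphosphatidylinositol (GPI) anchor. Several of them are the antigens by which mouse leukocytes are sorted. Antibodies to Ly6C, the product of Ly6c1 and Ly6c2, divide mouse monocytes into an inflammatory and a patrolling subset, Ly6G marks neutrophils, and Ly6A is the stem cell antigen Sca-1. The genes lie in a cluster in which several are recent copies of each other, so short reads from one member can match another.

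The FPKM table places all 7 genes on chromosome 15 of the mm9 build. In order along the chromosome, with positions counted from 1, Ly6d lies from 74592493 to 74593992, Ly6e from 74786092 to 74789761 and Ly6i from 74810242 to 74813860. The region given for Ly6a, 74825308 to 74879243, spans 53936 bases and ends at the same base as Ly6c1, which lies from 74875451 to 74879243, so the whole of Ly6c1 lies within it. In the GENCODE M21 annotation Ly6a spans 3155 bases. Ly6c2 follows from 74938973 to 74942097 and Ly6g from 74987123 to 74989169.

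The coding sequences of Ly6c1 and Ly6c2 differ at 9 of 393 bases (97.7% identity, GENCODE M21), and they are shown because the values of this pair differ most between the tables. Bases 1 to 300 are printed, with the 7 bases in them that differ in capitals.
Ly6c1: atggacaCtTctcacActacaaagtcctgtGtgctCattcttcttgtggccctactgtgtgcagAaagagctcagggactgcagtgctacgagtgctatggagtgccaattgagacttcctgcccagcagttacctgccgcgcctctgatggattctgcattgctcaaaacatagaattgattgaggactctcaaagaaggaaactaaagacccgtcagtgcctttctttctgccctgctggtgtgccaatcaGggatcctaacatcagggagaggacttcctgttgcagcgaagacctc
Ly6c2: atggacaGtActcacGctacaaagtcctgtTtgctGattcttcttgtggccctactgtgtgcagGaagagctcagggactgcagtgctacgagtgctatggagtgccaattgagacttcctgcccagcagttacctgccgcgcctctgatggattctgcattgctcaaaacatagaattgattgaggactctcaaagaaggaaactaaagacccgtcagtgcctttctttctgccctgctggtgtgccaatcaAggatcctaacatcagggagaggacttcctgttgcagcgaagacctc
Counted from 1 at the first base of the start codon, the differences are at positions 8, 10, 16, 31, 36, 65, 254, 327 and 376. The longest stretch with no difference runs from base 66 to base 253, which is 188 bases and longer than a read of 100 bases.

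Among Ly6a, Ly6c1, Ly6c2, Ly6g and Ly6i the identity of coding sequences was between 77.9% and 97.7% in the 10 pairs. Ly6e, the antigen Sca-2, stood apart, with 49.5% to 56.6% identity to each of the other genes, and so did Ly6d, a marker of early lymphoid cells, with 54.5% to 57.9%. Of the 100-base windows of the Ly6c2 transcript, 15.8% were found without a mismatch in a Ly6c1 transcript and 79.0% with at most 2 mismatches. For Ly6c1 against Ly6c2 these shares were 15.3% and 76.8%. No window of Ly6a, Ly6d, Ly6e, Ly6g or Ly6i was found without a mismatch in a transcript of any other gene. With at most 2 mismatches, 4.79% of the Ly6a windows were found in Ly6c1 and 2.80% in Ly6i, and Ly6d, Ly6e and Ly6g had no such window in another member.

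**Figure D1:**
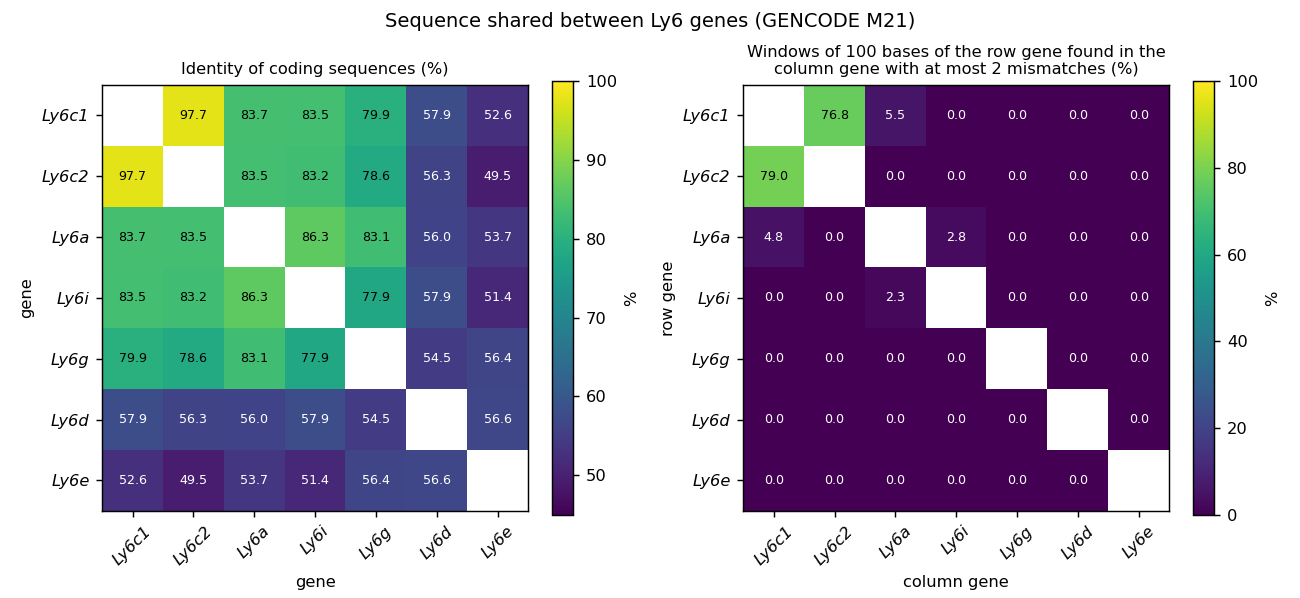
Sequence shared between the 7 Ly6 genes in GENCODE M21. Left, percent identity of each pair of coding sequences; right, percent of the 100-base windows of the row gene's transcript found in the column gene with at most 2 mismatches. Ly6c1 and Ly6c2 are the one pair that shares most of its windows (76.8% and 79.0%), and Ly6d, Ly6e and Ly6g share none with the other genes.

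A pair of libraries stood apart. BSM replicate 1 had 68.1% of all genes at 0 FPKM, against 51.8% to 58.6% in the other libraries, and 472 of the 6364 tested genes were at 0 there, against 51 to 115. The study lists for this library the lowest RNA integrity and the lowest RNA concentration of all 6, so a 0 in it is weak evidence of absence. BMDM replicate 2 was high in granulocyte markers, whose values are given with those of Ly6g and Ly6d. By the study's lists it was sorted from the fewest cells and had the lowest share of mapped reads. Without BSM replicate 1 the log2 difference of Ly6e was 1.93 (adjusted p = 0.000641 in limma) and that of Ly6c2 4.32 (adjusted p = 8.73e-05 in limma), so both calls stood.

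Expression of the family differed greatly between its members, and the higher value was in BMDM for each member that passed the test. Ly6e was abundant in both cell types. The Ly6c genes were expressed in BMDM and were at or near 0 in BSM, but the tables disagree on which of them carries the signal. Ly6a, Ly6i, Ly6g and Ly6d were low in every library.

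Of the 7 genes, 2 (Ly6c2 and Ly6e) reached the minimum for testing, an FPKM of 3 or more in any library, and 3 (Ly6c1, Ly6c2 and Ly6e) were among the 6364 entries with the highest values that were tested by ALEXA-Seq. All of these were called higher in BMDM, which means that limma gave a Benjamini-Hochberg adjusted p below 0.05 over all tested genes. Of all genes tested, 45.3% were called higher in BMDM by FPKM and 37.1% by ALEXA-Seq, and 54.5% and 47.9% were called in either direction. The Ly6c genes passed these minimums through the BMDM libraries alone.

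**Figure D2:**
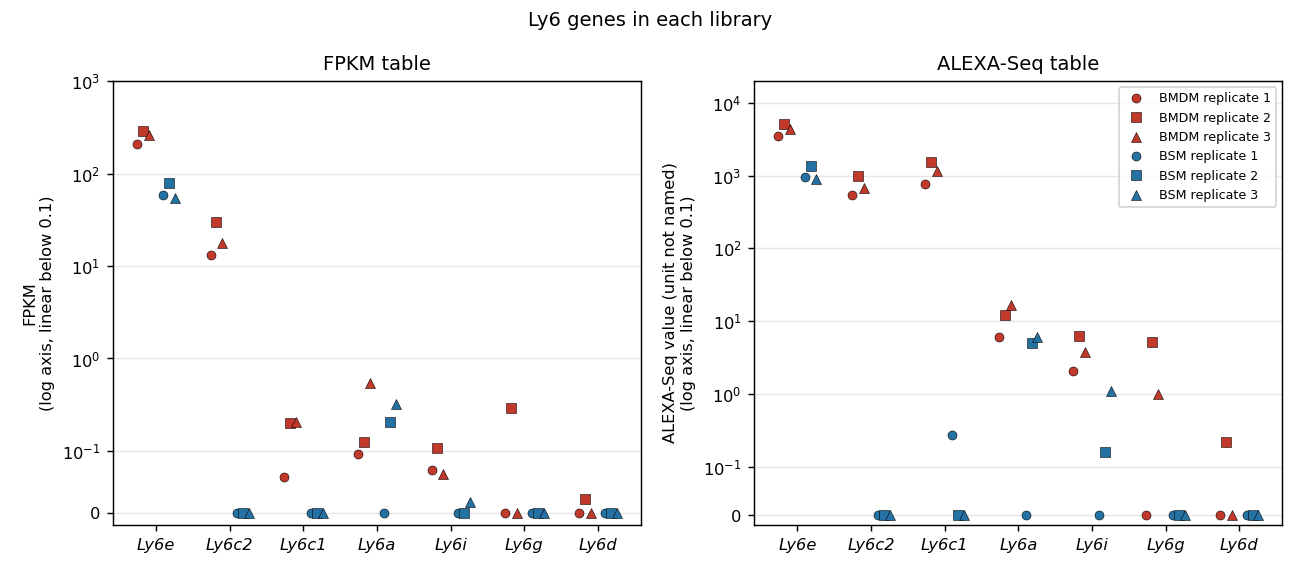
Value of each Ly6 gene in each of the 6 libraries, FPKM on the left and ALEXA-Seq on the right, on log axes that are linear below 0.1; red points are BMDM, blue points BSM, and the symbol gives the replicate. Ly6e is high in all 6 libraries, Ly6c2 lies at 13.03 FPKM or more in BMDM and at 0 in BSM, and Ly6c1 is near 0 by FPKM but at 773 or more in BMDM by ALEXA-Seq.

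Ly6e, which codes for a surface protein induced by interferon, had FPKM of 210.5, 291 and 260.2 in BMDM replicates 1, 2 and 3 and of 58.5, 78.7 and 54.1 in BSM replicates 1, 2 and 3. The groups did not overlap, and the lowest BMDM library was 2.68 times the highest BSM library. Every BMDM library lay above every BSM library for 55.2% of all genes tested by FPKM and for 51.5% by ALEXA-Seq. Among all genes the rank of Ly6e was 39 to 46 in BMDM and 94 to 143 in BSM. The means were 254 ± 40.8 (SD, n = 3) and 63.7 ± 13.1 (SD, n = 3), a ratio of 3.99. On the log2(FPKM + 1) scale the difference was 1.98 (standard error 0.24, adjusted p = 0.000412 in limma).

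By ALEXA-Seq, Ly6e was at 3547, 5158 and 4363 in BMDM and at 966, 1374 and 914 in BSM. Again the groups did not overlap. The ratio of means was 4.02 and the log2 difference 2.01 (standard error 0.24, adjusted p = 0.000738 in limma). The ratio was nearly the same in both tables for this member.

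The size of the Ly6e difference depended on how the libraries were scaled. The FPKM sums of the libraries were 163199 to 194184 in BMDM and 68288 to 75021 in BSM, and with no further scaling the log2 differences of the tested genes had a median of 0.81. Ly6e lay 1.18 above that median. After scaling every library to the same sum the median of all genes moved to -0.23 and Ly6e to 0.68 (standard error 0.20, adjusted p = 0.0306 in limma), which was 0.90 above the median, and 15.2% of all genes were then called higher in BMDM. With quantile normalization its log2 difference was 1.27 (adjusted p = 0.00242 in limma), and 21.7% of all genes were called higher in BMDM. By ALEXA-Seq, 13.2% of all genes were called higher in BMDM after scaling to the same sum and 22.6% after quantile normalization, Ly6e among them. It was called higher in BMDM under each of these scalings, and in bulk RNA fewer cells that express a gene and less RNA of it in each cell cannot be told apart.

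**Figure D3:**
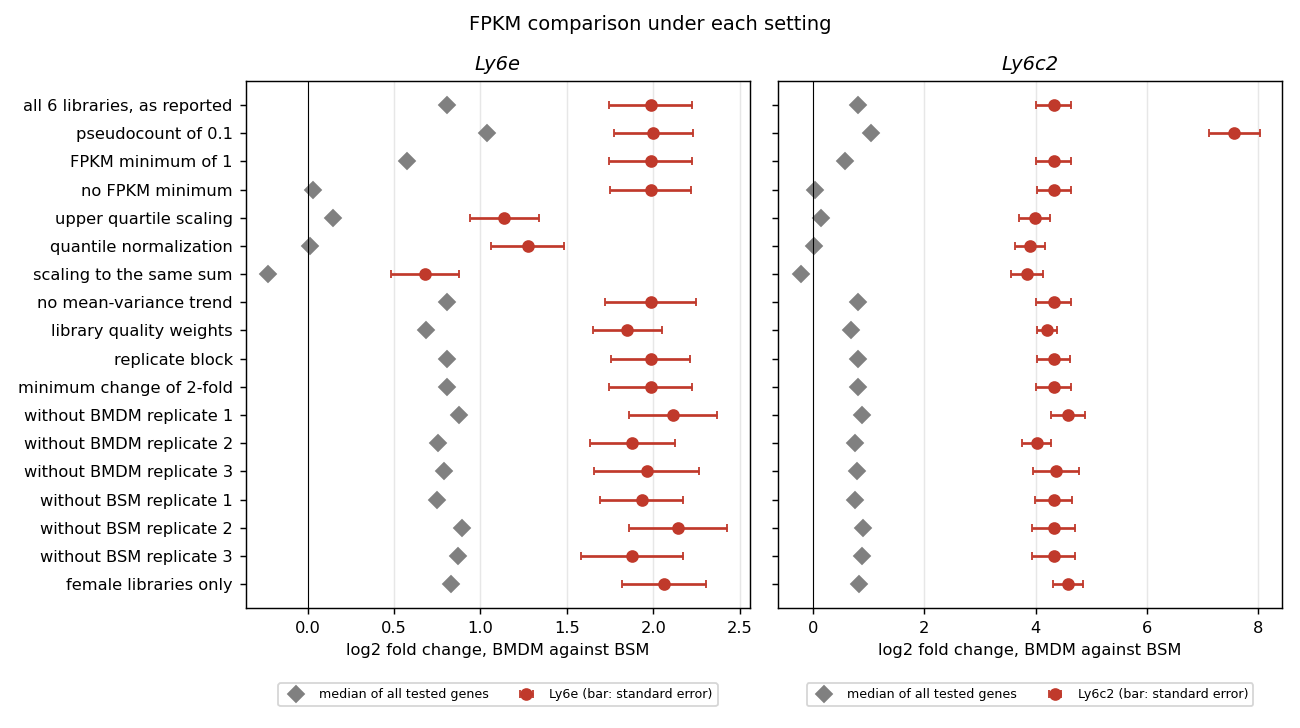
Log2 fold change of Ly6e (left) and Ly6c2 (right), BMDM against BSM, in the FPKM comparison under each setting, with bars for the standard error; grey diamonds are the median of all genes tested under that setting. Ly6e lies above the median of all genes in every setting, nearest to 0 after scaling to the same sum (0.68), and Ly6c2 lies between 3.84 and 7.58, the highest with a pseudocount of 0.1.

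Ly6c2, which codes for the Ly6C antigen, had FPKM of 13.03, 29.6 and 17.8 in BMDM replicates 1, 2 and 3, against a listed 0 in each BSM library. The BMDM mean was 20.1 ± 8.53 (SD, n = 3). Its log2 difference was 4.32 (standard error 0.32, adjusted p = 3.38e-05 in limma), a value that depends on the pseudocount because one group is at 0. By ALEXA-Seq it was at 535, 977 and 685 in BMDM and again at 0 in every BSM library, a log2 difference of 9.47 (standard error 0.36, adjusted p = 1.91e-05 in limma). The cell types did not overlap at Ly6c2 in either table, and both tables rest on the same reads. Every BMDM library lay above every BSM library for 55.2% of all genes tested by FPKM and for 51.5% by ALEXA-Seq.

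Ly6c1, the other Ly6C gene, had FPKM of 0.0580, 0.198 and 0.205 in BMDM and was listed at 0 in BSM. By ALEXA-Seq it was at 773, 1563 and 1154 in BMDM, above Ly6c2 in each library, and at 0.275, 0 and 0 in BSM. Its ALEXA-Seq log2 difference was 10.01 (standard error 0.37, adjusted p = 1.91e-05 in limma). The order of the pair therefore turned over between the tables. Within a BMDM library, Ly6c2 was 86.7 to 225 times Ly6c1 by FPKM, whereas Ly6c1 was 1.45 to 1.68 times Ly6c2 by ALEXA-Seq.

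Taking both genes as 1 quantity, the sum of Ly6c1 and Ly6c2 was 13.1, 29.8 and 18.0 FPKM in the BMDM libraries. Ly6c2 held 99.6%, 99.3% and 98.9% of it. By ALEXA-Seq the sum was 1308, 2539 and 1839, and Ly6c2 held 40.9%, 38.5% and 37.3%. In either table the sum was lowest in replicate 1 and highest in replicate 2, and in BSM it was at most 0.275. Which of the genes the reads came from cannot be told from these values.

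**Figure D4:**
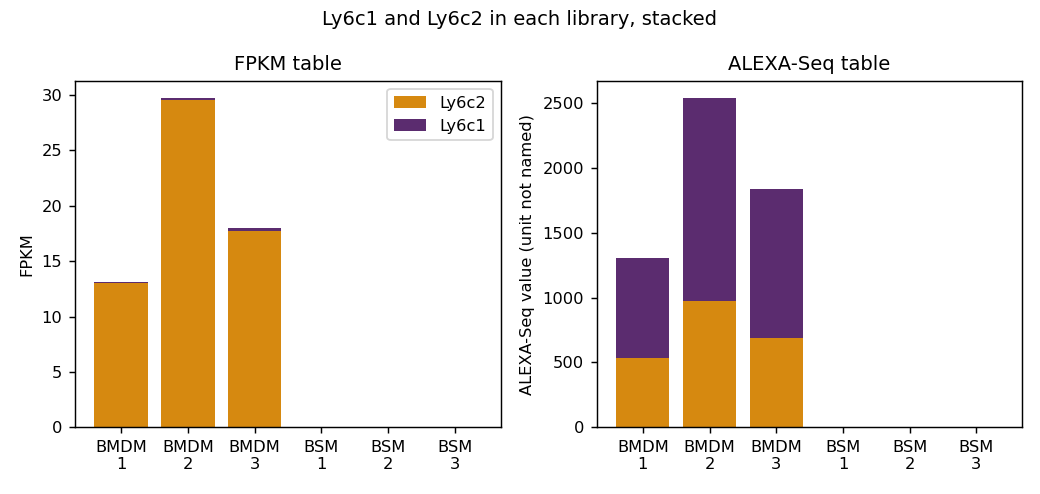
Stacked values of Ly6c2 (orange) and Ly6c1 (purple) in each of the 6 libraries, in FPKM (left) and by ALEXA-Seq (right), on linear axes from 0. The FPKM is nearly all Ly6c2 (98.9% to 99.6%), while Ly6c1 is the larger part by ALEXA-Seq, and no bar is visible for BSM.

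To place this discrepancy, mean BMDM values by ALEXA-Seq were divided by mean BMDM FPKM for the 4390 genes with a mean FPKM of at least 3 that have an unambiguous symbol in both tables. The median was 12.7, with a 5th percentile of 3.802 and a 95th percentile of 26.6. In classes of transcripts with median lengths of 2003, 3712 and 6188 bases the median ratio was 14.6, 11.7 and 11.9, so the ALEXA-Seq values also behave nearly as values per length. Ly6e had a ratio of 17.1. For Ly6c2 it was 36.4, higher than in 97.9% of these genes, and for the sum of both Ly6c genes it was 93.5, higher than in 99.7%. The ratio of Ly6c1 alone was 7565. Ly6a and Ly6i, which were below the FPKM minimum, had ratios of 45.98 and 49.9. Of the 255 genes with a mean BMDM ALEXA-Seq value at least that of Ly6c2, 6 (2.35%) had a mean FPKM under 1, and Ly6c1 was the lowest of these by FPKM.

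A further gene of the cluster was named after its values were seen. I830127L07Rik, which RefSeq calls Ly6a2, lies between Ly6c2 and Ly6g (74961807 to 74965558). It had FPKM of 8.04, 13.4 and 12.1 in BMDM and was listed at 0 in BSM, and its ALEXA-Seq values were 203, 417 and 300 against 0 in each BSM library. The BMDM libraries lay above the BSM libraries in both tables, as they did for 55.2% of all genes tested by FPKM and 51.5% by ALEXA-Seq. Like Ly6c2, it passed the minimums for testing through the BMDM libraries alone. Of its 100-base windows, 0.317% were found in a Ly6c2 transcript with at most 2 mismatches.

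RefSeq promoters (GRCm38.p6) were at hand for Ly6c1, Ly6c2 and Ly6g. The 250 bases before the most upstream start are shown for the pair whose values rose together in BMDM by ALEXA-Seq, with the motifs found in them in capitals.
Ly6c1, chr15:75048838-75049087, minus strand: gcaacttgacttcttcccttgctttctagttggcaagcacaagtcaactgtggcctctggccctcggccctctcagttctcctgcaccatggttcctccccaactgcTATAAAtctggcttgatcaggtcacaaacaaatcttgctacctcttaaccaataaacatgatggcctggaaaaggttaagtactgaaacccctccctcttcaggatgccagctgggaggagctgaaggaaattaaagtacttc
Ly6c2, chr15:75111972-75112221, minus strand: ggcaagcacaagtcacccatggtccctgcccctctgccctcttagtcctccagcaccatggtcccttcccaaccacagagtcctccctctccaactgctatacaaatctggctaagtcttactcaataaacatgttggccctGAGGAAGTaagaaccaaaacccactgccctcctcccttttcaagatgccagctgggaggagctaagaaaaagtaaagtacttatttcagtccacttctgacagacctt
Searched on both strands from 250 bases before to 50 bases after the start were the interferon-stimulated response element, TTCNNNGAA (gamma-activated site), GAGGAAGT (the Ets type bound by the myeloid factor PU.1) and TATAAA. The Ly6c2 promoter held GAGGAAGT on the plus strand of the gene with its first base at -108, counted from the start, and again at 27. The Ly6c1 promoter held TATAAA with its first base at -143, and the Ly6g promoter held both motifs. From its other annotated start, Ly6c1 also held GAGGAAGT, with the first base at -127. The interferon-stimulated response element and TTCNNNGAA were not in these windows. Of all 32851 promoters of this length, 3.20% held GAGGAAGT, 13.6% TATAAA, 3.44% the interferon-stimulated response element and 8.30% TTCNNNGAA.

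Ly6i, a close relative of Ly6a, had FPKM of 0.0685, 0.109 and 0.0633 in BMDM and of 0, 0 and 0.0172 in BSM. By ALEXA-Seq the values were 2.08, 6.18 and 3.75 against 0, 0.160 and 1.08. The BMDM libraries lay above the BSM libraries in both tables, at levels far below those of Ly6e and Ly6c2. Of all genes above 0 in any library, 30.0% by FPKM and 24.3% by ALEXA-Seq had every BMDM library above every BSM library. When every gene above 0 was tested, its log2 difference was 0.10 by FPKM (standard error 0.02, adjusted p = 0.0205 in limma) and 1.81 by ALEXA-Seq (standard error 0.55, adjusted p = 0.0804 in limma). With that setting 14.9% of all genes were called higher in BMDM by FPKM, and 4 of the 7 Ly6 genes were, Ly6c1 (adjusted p = 0.0495 in limma) and Ly6i beside the 2 already named. By ALEXA-Seq 10.5% of all genes and 3 of the 7 were called higher.

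Ly6a was detected at a low level in both cell types, with FPKM of 0.0949, 0.126 and 0.545 in BMDM and 0, 0.206 and 0.319 in BSM. By ALEXA-Seq it was at 5.97, 12.3 and 16.9 in BMDM and at 0, 5.07 and 6.16 in BSM. The groups overlapped in both tables, and with no minimum its adjusted p in limma was 0.749 by FPKM and 0.275 by ALEXA-Seq. The ratio of mean FPKM was 1.46, and 0.973 without BSM replicate 1, where Ly6a was at 0 in both tables. By ALEXA-Seq the ratio of means over all libraries was larger, at 3.14.

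Sca-1 is also carried by blood stem cells and by endothelial cells, and markers of both were measured. A list of 8 progenitor markers summed to 2.43 to 6.01 FPKM in BMDM and to 6.18 to 14.3 in BSM. Of these, 1 reached the FPKM minimum, Cd34, a surface protein of progenitors and of endothelium, which was at 0.445, 0.559 and 0.922 FPKM in BMDM and at 4.72, 9.95 and 11.3 in BSM (log2 difference -2.49, standard error 0.34, adjusted p = 0.000714 in limma). Cd34 was the largest part of the sum in each BSM library, and the rest of the list was mixed. Kit was at 0.347, 1.46 and 0.562 FPKM in BMDM and at 0, 0.00584 and 0 in BSM. Flt3 was also higher in BMDM (0.686, 1.90 and 1.80 against 0.139, 0.0552 and 0.0496). Tal1 was higher in BSM (0.0756, 0.214 and 0.0559 in BMDM against 1.18, 1.24 and 1.06). Meis1, Hlf and Mecom overlapped between the cell types, and Gata2 was at most at 0.00395 FPKM. A list of 10 endothelial markers summed to 6.23 to 8.32 FPKM in BMDM and to 2.22 to 4.28 in BSM. Slc2a1, a glucose transporter, was the 1 that reached the minimum, and it was called higher in BMDM (log2 difference 0.99, adjusted p = 0.0210 in limma). In BSM, Pecam1 was at 1.04, 1.81 and 1.93 FPKM, Kdr at 0.268, 0.145 and 0.114, Cdh5 at most at 0.0199, and Cldn5 at 0. In BMDM, Kdr was at most at 0.0437 FPKM. Flt1 was at 0.978, 0.794 and 1.36 FPKM in BMDM and at 0, 0.00181 and 0.851 in BSM. The part of such cells in the Ly6a values was not tested.

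Ly6g, the neutrophil antigen by which cells were gated out, was listed at 0 FPKM in every library but BMDM replicate 2, where it was at 0.293. By ALEXA-Seq it was at 0, 5.24 and 1.01 in BMDM and at 0 in each BSM library. Ly6d was above 0 only in BMDM replicate 2, at 0.0214 FPKM and an ALEXA-Seq value of 0.216. With no minimum neither gene passed the test in limma, with adjusted p of 0.493 and 0.546 by FPKM and of 0.282 and 0.552 by ALEXA-Seq.

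The order of mean FPKM in BMDM was Ly6e (254), Ly6c2 (20.1), Ly6a (0.255), Ly6c1 (0.154), Ly6g (0.0977), Ly6i (0.0802) and Ly6d (0.00713). The steps from Ly6e to Ly6c2, from Ly6c2 to Ly6a and from Ly6i to Ly6d were free of overlap between libraries, and the other neighbours overlapped. In the ALEXA-Seq table the order was Ly6e (4356), Ly6c1 (1163), Ly6c2 (732), Ly6a (11.7), Ly6i (4.00), Ly6g (2.08) and Ly6d (0.0720). There the steps from Ly6e to Ly6c1 and from Ly6c2 to Ly6a were free of overlap, whereas the values of Ly6c1 and Ly6c2 overlapped although Ly6c1 was higher within each library. In BSM, Ly6e (63.7 FPKM) was followed by Ly6a (0.175 FPKM), with Ly6i at 0.00572 FPKM and the others at 0. Ly6a and Ly6i overlapped there.

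Replicate 2 of BMDM stood apart in markers of other cells. A list of 12 granulocyte markers summed to 87.7 and 131 FPKM in BMDM replicates 1 and 3, to 553 in replicate 2 and to 11.5 to 20.2 in the BSM libraries, and 11 of the 12 had their highest value among the BMDM libraries there. Csf3r was the exception. S100a8, a neutrophil calcium-binding protein, was at 4.73, 59.3 and 7.15 FPKM in BMDM and at 0 in BSM, and Elane, a protease of neutrophil granules, was at 9.75, 56.0 and 10.7 FPKM. A list of 9 B and T cell markers found in the table summed to 0.392, 3.65 and 1.42 FPKM in BMDM and to at most 0.529 in BSM, with Cd79a of B cells at 2.22 FPKM in BMDM replicate 2. In the same library Ly6c2, Ly6e, Ly6i, Ly6g and Ly6d had their highest FPKM. The share of all genes that peak there was not counted, and its FPKM sum was the largest of all libraries. Divided by the mean of BMDM replicates 1 and 3, replicate 2 had a median FPKM ratio of 1.12 over all tested genes. By the same measure Ly6e was at 1.24, Ly6c2 at 1.92, Ly6i at 1.65 and Ly6a at 0.395.

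In the ALEXA-Seq table the granulocyte list was 7.25 times as high in BMDM replicate 2 as in replicate 1, against 1.83 times for Ly6c2, 2.02 times for Ly6c1, 1.45 times for Ly6e and 2.97 times for Ly6i. The list of 8 markers of Ly6C-high monocytes, all of which were called higher in BMDM by both tables (45.3% of all tested genes by FPKM and 37.1% by ALEXA-Seq), was 1.91 times as high. Divided by the mean of BMDM replicates 1 and 3, replicate 2 had a median ALEXA-Seq ratio of 1.18 over all tested entries. Ly6e was at 1.30 by this measure, Ly6c1 at 1.62 and Ly6c2 at 1.60. Without BMDM replicate 2 the log2 difference of Ly6c2 was 4.02 (adjusted p = 0.000309 in limma) and that of Ly6e 1.88 (adjusted p = 0.00269 in limma), with FPKM. By ALEXA-Seq that of Ly6c1 was 9.77 (adjusted p = 0.000428 in limma). Ly6d was above 0 in this library alone in both tables, as was Ly6g by FPKM, while Ly6g by ALEXA-Seq was also above 0 in BMDM replicate 3. The part of other cells in these values was not tested.

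**Figure D5:**
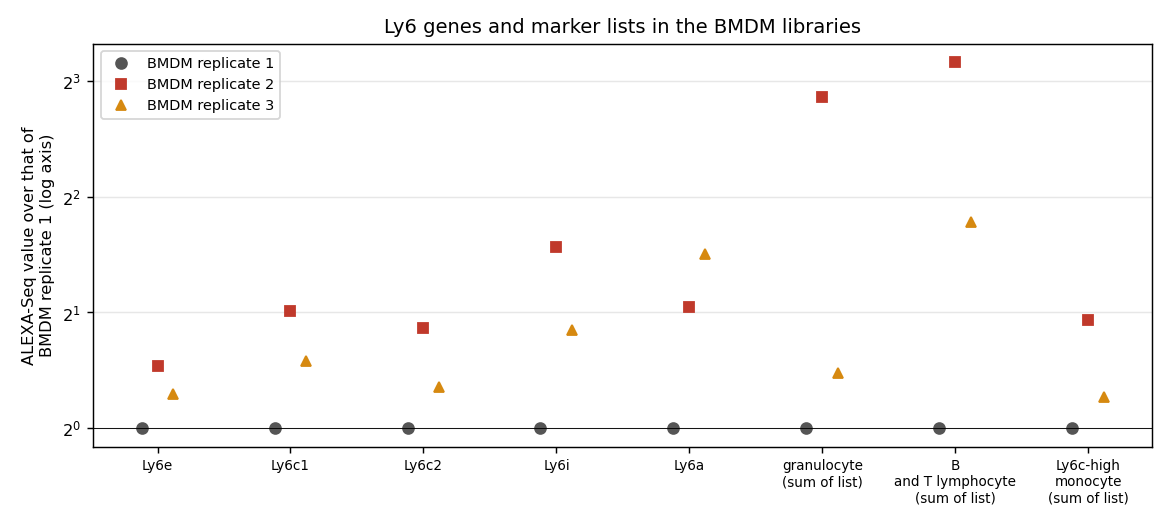
ALEXA-Seq value in each BMDM library divided by that in BMDM replicate 1, on a log axis, for 5 Ly6 genes and for the sums of 3 marker lists. In replicate 2 the granulocyte list is at 7.25 and the list of B and T cell markers at 8.94, while Ly6e, Ly6c1 and Ly6c2 lie between 1.45 and 2.02.

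Of the genes behind the sort, Csf1r, which encodes CD115, was at 19.1 to 21.3 FPKM in BMDM and at 102 to 158 in BSM, and Ptprc, which encodes CD45, at 83.2 to 115 and 21.4 to 46.1. Itgam, which encodes CD11b, was at 109 to 132 FPKM in BMDM and at 176, 0 and 100.5 in BSM, with 2435 by ALEXA-Seq in the library with the 0. All 9 microglia markers were called higher in BSM by both tables, as were 9.22% of all tested genes by FPKM and 10.9% by ALEXA-Seq. Of the 8 markers of Ly6C-low monocytes, 3 reached the FPKM minimum, Spn and Itgal higher in BMDM and Cx3cr1 higher in BSM.

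Among other genes of the Ly6/uPAR family, 30 of 32 were found in each table, and 29 of the 30 stayed under an FPKM of 1 in every library. The exception was Plaur, the receptor of the plasminogen activator urokinase, at 2.04, 4.06 and 2.27 FPKM in BMDM and 0, 0.130 and 0.161 in BSM. Every BMDM library lay above every BSM library, as for 55.2% of all genes tested by FPKM and 51.5% by ALEXA-Seq. Its log2 difference was 1.75 (standard error 0.32, adjusted p = 0.00290 in limma), but it reached the FPKM minimum only through BMDM replicate 2. By ALEXA-Seq its log2 difference was 4.66 (standard error 0.72, adjusted p = 0.00222 in limma). Calls higher in BMDM took in 45.3% of all genes tested by FPKM and 37.1% by ALEXA-Seq. Cd59a, an inhibitor of complement that is also GPI-anchored, was at most at 0.113 FPKM. By ALEXA-Seq, whose values run higher, 19 of the 30 stayed under 1 in every library. Below the minimums, Ly6g6d, Lypd6, Tex101 and Gpihbp1 were above 0 only in BSM in both tables, and Ly6k only in BMDM. Ly6g6d, Lypd6 and Tex101 were at 0 in BSM replicate 1, and Gpihbp1 was above 0 in that library alone. The share of all genes with such a pattern was not counted.

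Ly6 proteins need the enzymes that build and attach the GPI anchor, and these were measured as a list. Of 28 genes, 14 reached the FPKM minimum, 5 were called higher in BMDM, 1 was called higher in BSM, and 8 did not pass the test, with a median log2 difference of 0.72 against 0.81 for all tested genes. Of all tested genes, 45.3% were called higher in BMDM and 9.22% higher in BSM. Each of the 6 called reached the minimum only through the cell type in which it was higher. Under upper quartile scaling, scaling to the same sum and quantile normalization alike, the split turned over, with 1 gene called higher in BMDM against 3 in BSM. Pgap1, which remodels the anchor after it is attached, had the largest difference among them, with 4.02, 4.89 and 5.11 FPKM in BMDM and 0.506, 0.671 and 0.769 in BSM (log2 difference 1.78, standard error 0.24, adjusted p = 0.000713 in limma). Dpm2, a subunit of the enzyme that makes the mannose donor, was at 2.99, 4.17 and 5.84 FPKM in BMDM and 0.560, 2.16 and 1.13 in BSM. Piga, Pigq and Dpm1 were the other genes called higher in BMDM, and Pigp was called higher in BSM (0.122, 0.315 and 0.190 FPKM in BMDM against 3.36, 3.12 and 1.01). By ALEXA-Seq 10 of the 28 were tested and Pgap1 alone was called, higher in BMDM (log2 difference 2.62), against 37.1% of all entries tested. Dpm1 was not tested there, and its groups overlapped, at 14.1, 6.24 and 9.81 in BMDM and 18.0, 7.45 and 9.39 in BSM. The other genes called by FPKM kept their direction by ALEXA-Seq.

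The tested genes whose log2(FPKM + 1) was most like that of Ly6c2 over the 6 libraries were Ifitm6, Cd300lg and Ube2c, with Pearson's r of 1.00 each to 2 decimals. Ifitm6 was at 9.91, 19.3 and 12.8 FPKM in BMDM and at 0 in BSM. For Ly6e they were Psmb4, Ywhaz and ENSMUSG00000070343, also at 1.00. Such values were common, as 1368 tested genes had an r over 0.95 with Ly6c2 and 1293 with Ly6e, and all of these points share the same 6 libraries and the difference between the cell types.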

How the data were processed

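The authors aligned paired-end reads with TopHat 1.3.1 and Bowtie 0.12.7, on the mm9 build by the submitters' processing notes, and deposited FPKM of each gene from Cufflinks 1.0.3. They also deposited an ALEXA-Seq signal of each gene, on a linear scale with no unit named. RNA was amplified before sequencing. The reads behind a value are unknown in both tables, and whether a read that matches several genes was shared or dropped by each method was not given in the sources used here.

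BMDM and BSM were compared with limma 3.58.1 in R 4.3.3 (empirical Bayes with a mean-variance trend) on log2(value + 1), for genes that reached an FPKM of 3 in any of 6 libraries, and for the same number of ALEXA-Seq entries by highest value (at least 37.4). Genes with a Benjamini-Hochberg adjusted p under 0.05 were called. An exact permutation test of 3 against 3 libraries cannot go below 0.1. Folds are on the log2(value + 1) scale, which understates low genes. The fit was tested on simulated data in which far fewer genes changed than were called here, and small changes were not recovered there. How often a true change is called in the real comparison was not measured, so a gene that was not called can still differ.

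File starts were counted from 0, since 7547 of 17788 genes then had the span of GENCODE M21, against 266 otherwise, and 1 was added. Transcripts and coding sequences were those of GENCODE M21 (principal isoforms, the longest transcript), aligned with Biopython 1.88. Genes named were the 7 members, list members that passed the test, at most 10 a list, and the 3 most correlated genes. The members and lists were chosen with earlier results of these data known. Alternatives were another pseudocount, minimum and scaling, no trend, library quality weights, the replicate block, a minimum change, and leaving out each library. The study's arrays were not analysed here.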

Additional observations from a re-analysis of the deposited data

How the results depend on the processing

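Ly6e and Ly6c2 kept their direction and their call in all 17 alternatives of the FPKM comparison, and Ly6e, Ly6c1 and Ly6c2 in all 13 by ALEXA-Seq. The log2 difference of Ly6e was lowest after scaling to the same sum (0.68, and 0.73 by ALEXA-Seq), which removes a shift common to all genes by construction. Over the fits that leave out 1 library it was 1.88 to 2.14, and that of Ly6c2 4.02 to 4.58. The count of Ly6 genes called by FPKM went from 2 to 4 with no FPKM minimum, which lets all 7 be tested. The summed mean of Ly6c1 and Ly6c2 in BMDM was 20.3 ± 8.58 (SD, n = 3) in FPKM and 1895 by ALEXA-Seq, and the Ly6c2 share of it 99.3% ± 0.356 (SD, n = 3) and 38.9%. The cause was not tested.

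Over all genes, 3470 calls by FPKM became 1137 with a minimum change of 2-fold and 2463 to 3876 with 1 library left out. The split of higher and lower calls in BMDM moved from 2883 and 587 to 1379 and 1051 with upper quartile scaling, 1378 and 1227 with quantile normalization and 968 and 1585 with scaling to the same sum. The median log2 difference of all tested genes was then 0.14, 0.02 and -0.23 in place of 0.81. The 3050 calls by ALEXA-Seq became 1974 without BMDM replicate 3 and at most 4085 with another library left out. Among the Ly6/uPAR relatives, Plaur was not called in limma with a minimum change of 2-fold, where 0 were called and 1 had an unadjusted p under 0.05, and no relative was tested without BMDM replicate 2, so the count with 1 library left out was 0 or 1. By ALEXA-Seq it went from 1 to 2 with no minimum. The 6 GPI anchor genes called by FPKM became 1 with the minimum change and 3 to 8 with 1 library left out, lowest without BMDM replicate 3, and their split of 5 higher and 1 lower in BMDM became 1 and 3 under each of the 3 scalings. The 1 called by ALEXA-Seq became 2 with quantile normalization or scaling to the same sum, 3 with no minimum, 4 with no trend and 5 in female libraries only, an alternative chosen after seeing the data, and 1 to 5 with 1 library left out (2 without BMDM replicate 2, 5 without BSM replicate 1).

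The labels do not say whether same-numbered libraries of the cell types are paired. The deviations of same-numbered libraries correlated at -0.0195, -0.00836 and 0.134, and those of other pairs at -0.113 to 0.0685. With so few libraries these values cannot settle whether they are paired. With the replicate number as a block the FPKM comparison gave 3471 genes and the ALEXA-Seq comparison 2885, with 3 GPI anchor genes by ALEXA-Seq in place of 1, and it changed no call of a Ly6 gene.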
